A study of Mus musculus with 2 samples.

Results

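Mature osteoblasts with high osteocalcin transcript (Bglap) were examined in single-cell RNA sequencing (scRNA-seq) data of mouse long bone. They were selected on measured values alone. A cell was kept with 500 to 6000 detected genes and under 25% mitochondrial unique molecular identifiers (UMIs), each UMI marking 1 captured RNA molecule. It then had to show no Cdh5 (endothelium), no Ptprc (blood cells), fewer than 5 UMIs of Acan (cartilage) and at least 5 UMIs of Bglap. At least 2 of 5 genes of late osteoblasts (Ifitm5, Entpd3, Cpz, Prss35, Col22a1) had to be detected, with fewer than 3 of 5 genes of a neighbouring osteoblast group (Gal, Notum, Cdo1, Lurap1l, Cybrd1, the Gal-set) and fewer than 4 of 7 genes of cells on the way to osteocytes (Dmp1, Phex, Ackr3, Pdpn, Cd109, Ptprz1, Dkk1, the Dmp1-set). These conditions left 2479 of 55783 kept cells, namely 1055 of 26466 in the Control library and 1424 of 29317 in the Dach1OE library. They are called Bglap-high osteoblasts, or members, in what follows.

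Both libraries were made from femur and tibia of C57BL/6 mice of both sexes at postnatal day 30, after tamoxifen, with 2 mice pooled per group according to the methods. The Dach1OE group had the genotype Apj CreERT2 - Dach1OE +/f, in which the inducible Cre of Aplnr (also named Apj), active in capillary endothelium, turns on extra Dach1 from a Rosa26 transgene. The Control group had the genotype Dach1OE +/f with no Cre named. The methods also give both a Cre reporter allele, R26-mT/mG, and tamoxifen at P1 and P2. Bones without epiphysis were digested and crushed, and blood cells were depleted. The Cre is thus directed to endothelium by design, and whether it acted in the osteoblasts described here was not tested.

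Osteoblasts build bone by secreting type I collagen together with non-collagen proteins and by loading this matrix with mineral. Osteocalcin is a small protein of bone matrix that binds mineral after vitamin K-dependent carboxylation, and it is a classic late product of the osteoblast. Runx2 and Sp7 (osterix) set up the lineage, and RUNX2 is known to act on the osteocalcin promoter. Some late osteoblasts become buried in matrix as osteocytes and then turn on Dmp1, Phex and other genes of phosphate handling.

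The mouse has a row of osteocalcin genes on chromosome 3, and 3 of them carry results below. Their coding sequences were read from GENCODE vM21 transcripts on GRCm38, all on the minus strand, at chr3:88383635-88384415 for Bglap, chr3:88377870-88378650 for Bglap2 and chr3:88368756-88369536 for Bglap3, each split over 4 exons and 288 coding bases long. They are shown because a 3-way comparison of levels depends on how well reads can be told apart. Capitals mark the bases that differ from Bglap.
Bglap: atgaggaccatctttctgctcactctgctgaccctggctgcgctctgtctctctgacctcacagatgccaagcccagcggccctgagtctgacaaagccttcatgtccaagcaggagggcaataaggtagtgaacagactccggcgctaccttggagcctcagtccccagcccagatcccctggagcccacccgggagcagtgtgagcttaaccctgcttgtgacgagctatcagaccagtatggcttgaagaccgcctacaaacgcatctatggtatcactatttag
Bglap2: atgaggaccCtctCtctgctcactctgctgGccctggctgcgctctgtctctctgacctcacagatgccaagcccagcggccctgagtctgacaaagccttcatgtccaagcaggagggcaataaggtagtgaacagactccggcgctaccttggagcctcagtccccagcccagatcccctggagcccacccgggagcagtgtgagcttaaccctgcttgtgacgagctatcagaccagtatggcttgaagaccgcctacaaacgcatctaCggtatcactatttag
Bglap3: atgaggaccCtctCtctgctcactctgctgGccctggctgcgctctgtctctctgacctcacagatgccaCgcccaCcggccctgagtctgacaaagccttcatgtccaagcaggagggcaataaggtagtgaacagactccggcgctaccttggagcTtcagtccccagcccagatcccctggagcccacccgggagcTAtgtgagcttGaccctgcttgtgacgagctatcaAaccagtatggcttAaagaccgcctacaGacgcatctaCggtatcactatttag
Bglap2 differed from Bglap at 4 coding bases (98.6% identity) and Bglap3 at 13 (95.5%). Of the windows of 50 bases in the Bglap transcript, 74.7% were also found in Bglap2 and 20.5% in Bglap3. The split of reads between Bglap and Bglap2 is therefore uncertain. Of the windows of Bglap3, 12% occurred in Bglap and 24% in Bglap2, whereas 37.9% of Bglap2 windows occurred in Bglap3. Windows were taken over whole transcripts, and that of Bglap3 is the longest (717 bases against 440 and 471). The split of Bglap3 is thus uncertain too.

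The stretches of 250 bases before the transcript starts of Bglap (chr3:88384467-88384716, minus strand) and of Bglap3 nearest to its coding part (chr3:88369832-88370081, minus strand) were taken from RefSeq on GRCm38.p6. They are printed because these genes differed in how they compared between the libraries. Capitals mark the RUNX core ACCACA, searched on both strands as ACCACA or TGTGGT.
Bglap upstream: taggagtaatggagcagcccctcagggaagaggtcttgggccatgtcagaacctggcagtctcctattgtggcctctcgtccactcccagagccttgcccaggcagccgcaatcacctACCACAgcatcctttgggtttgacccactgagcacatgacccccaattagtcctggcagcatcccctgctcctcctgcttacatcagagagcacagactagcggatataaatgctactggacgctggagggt
Bglap3 upstream: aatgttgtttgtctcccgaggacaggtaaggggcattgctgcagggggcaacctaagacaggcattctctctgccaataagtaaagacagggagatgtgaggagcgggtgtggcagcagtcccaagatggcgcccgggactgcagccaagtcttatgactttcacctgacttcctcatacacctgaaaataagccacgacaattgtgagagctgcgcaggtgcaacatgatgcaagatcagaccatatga
Bglap held 1 match, which began 132 bases before the start. No match lay in the stretch printed for Bglap3, nor in those of its other listed starts or of Ifitm5, Entpd3, Prss35 and Cpz. The printed stretches lie at unlike distances from the coding parts, which begin at chr3:88384415 for Bglap and chr3:88369536 for Bglap3. Bases between the Bglap3 stretch and its coding part were not searched. A match was found in 4614 of 32851 such windows over all genes (14%), and no match says only that these letters are absent from the window.

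The label of mature osteoblast was checked against markers that the rule did not use. Col1a1 and Col1a2, the chains of type I collagen, had a UMI in 100% of members of both libraries and together made up a median 33.9% of a member's UMIs in Control and 32.9% in Dach1OE. Sp7 stood at 334 and 353 CPM (UMIs of a gene summed over all members and scaled to the same total in each library) in Control and Dach1OE, Runx2 at 201 and 193 CPM, and Ibsp (bone sialoprotein) at 1994 and 1914 CPM. In all other kept cells Sp7 was at 129 and 135 CPM, Runx2 at 115 and 105 CPM and Ibsp at 875 and 862 CPM. Detection of collagen alone does not mark a member, since Col1a1 had a UMI in 82.6% and 90.0% and Col1a2 in 73.0% and 81.2% of kept cells with Cdh5, where Col1a1 was at 9916 and 12300 CPM against 188446 and 183268 CPM in members. Bglap2 was detected in 99.6% of members of both libraries. Free RNA and mixed cells can add to such shares. In kept cells with Cdh5, Bglap2 was detected in 11.1% and 12.6% of cells, at a median of 3264 and 3226 UMIs per cell against 6918 and 7108 in members. Among the rule's own genes, Ifitm5, a membrane protein of mineralizing osteoblasts, had a UMI in 86.7% and 90.0% of members against 3.24% and 4.42% of cells with Cdh5. Entpd3 was found in 77.9% and 80.5% of members and Prss35 in 63.0% and 64.4%. The shares of these 3 genes follow from the rule and check nothing, and Bglap2 shares most of its transcript windows with Bglap. The check of the label therefore rests on the levels of Col1a1, Sp7, Runx2 and Ibsp in members and other cells, given as a description. It bears on osteoblast in the label and not on mature. The 10 osteoblast markers, led by Col1a1, summed to 222585 and 214472 CPM in members. They summed to 221427 and 214969 CPM in Gal-set cells and to 211656 and 204875 CPM in Dmp1-set cells. The 9 osteocyte markers summed to 488 CPM in Control and 417 CPM in Dach1OE, with a UMI of any of them in 81.5% and 79.8% of members, led by Phex at 187 and 170 CPM and Dmp1 at 186 and 135 CPM. The rule allowed up to 3 of its Dmp1-set genes, Phex and Dmp1 among them, in a member. Some of the 9 were near 0, with 3 UMIs of Sost (sclerostin) in Control and none in Dach1OE, 4 and 16 of Mepe, and 3 and 4 of Fgf23. Irx5 and Cd44 were not, and their levels are given below.

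Markers of other cells were present in members. The cartilage collagen Col2a1 had a UMI in 86.0% and 90.7% of members at 1530.2 and 1554 CPM, and also in 77.4% and 85.4% of cells with Cdh5, where it reached 11707 and 14844 CPM. The cells with Cdh5 had no limit on Acan, whereas members had one, so the levels are given side by side, and the part of free RNA in them was not tested. Summed over 10 markers of marrow stromal cells, members stood at 921 CPM in Control and 346 CPM in Dach1OE, all 10 above 0 in both. Endothelial markers summed to 102 and 87.4 CPM and those of myeloid and lymphoid cells to 102 and 86.5 CPM, with Cdh5 and Ptprc at 0 by the rule. The 8 osteoclast markers, led by Ctsk (cathepsin K), summed to 358 and 270 CPM, with a UMI of any of them in 64.0% and 66.1% of members. Doublets were kept, and Scrublet marked 7.20% and 5.76% of members as doublets. The libraries shared 879 cell indices among kept cells and 2 among members. In all, the Control table held 143986818 UMIs in 28720 cells and that of Dach1OE held 166999989 UMIs in 32028 cells.

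Depth was alike in both libraries. The median member held 6918 UMIs from 1763 genes in the Control library and 7108 UMIs from 1785 genes in the Dach1OE library, and mitochondrial UMIs made up a median of 8.16% and 7.88%. Bglap itself ranged from 5 to 708 UMIs per cell in Control, with a median of 113, and from 5 to 666 in Dach1OE, with a median of 100. Few cells lay at the edge for Bglap, with 9 members at 5 UMIs in each library and 11 and 12 otherwise eligible cells at 4 UMIs. The other limits cut through denser regions. In Control 132 members had just 2 late genes and 81 cells had 1, whereas 317 members had 2 Gal-set genes and 167 cells had 3, and 164 members had 3 Dmp1-set genes and 74 cells had 4. In Dach1OE these pairs were 144 and 75, 504 and 246, and 211 and 93. Bglap-high osteoblasts as chosen are thus a range with many cells on either side of these limits.

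With the genes of the rule left out, the genes that stood highest in members over all other kept cells were led by Bglap3 and Bglap2. As the cells were chosen on their transcripts, these values are a description. Bglap3 was 24.2-fold and Bglap2 22.5-fold higher in Control members, and 20.4-fold and 19.5-fold in Dach1OE. Slc9a2, a sodium and proton exchanger, stood at 71.2 CPM in Control members against 4.19 CPM in other cells, a ratio of 17.0, and the ratio was 14.9 in Dach1OE. Car3, a carbonic anhydrase, was 15.1-fold and 13.7-fold higher. Type I collagen followed, with Col1a1 at 13.7-fold and 11.4-fold and Col1a2 at 12.6-fold and 10.7-fold. Serpinf1, which encodes the secreted factor PEDF and is mutated in a form of brittle bone disease, was 12.3-fold and 10.9-fold higher. Bmp3, a BMP family member that restrains bone formation, was 11.4-fold and 10.1-fold higher. The list of 15 was completed by Insc, a gene of spindle orientation, Lipc (hepatic lipase), the amino acid transporter gene Slc36a2, the cadherin gene Cdh15, and Mlip, Gm266 and Ubap1l, each between 9.98-fold and 13.6-fold in both libraries.

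**Figure D1:**
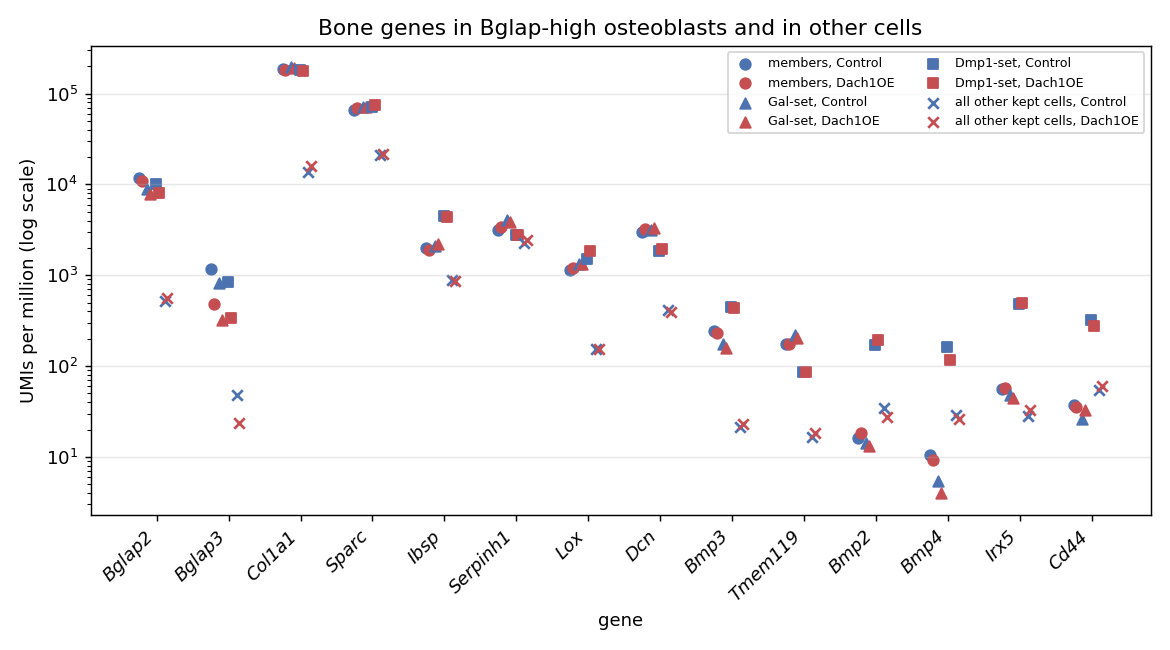
CPM (vertical axis, log scale) of 14 bone genes (horizontal axis) in members, Gal-set cells, Dmp1-set cells and all other kept cells of Control (blue) and Dach1OE (red), where all other kept cells also hold the Gal-set and Dmp1-set cells. Col1a1 lies at about the same height in all 3 osteoblast groups, Bmp2, Bmp4, Irx5 and Cd44 are high in Dmp1-set cells, and Bglap3 is lower in Dach1OE in every group.

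The cells closest to members were those with the same Bglap limit that the rule set apart. There were 201 Gal-set cells in Control and 322 in Dach1OE, and 219 and 273 Dmp1-set cells. Compared with Gal-set cells, the 8 genes highest in members stood higher by modest ratios. Malat1, a nuclear RNA, stood at 583 CPM in Control members and 287 CPM in Gal-set cells (2.03-fold), and at 377 and 241 CPM in Dach1OE (1.57-fold). Selenop, a selenium carrier, was 1.68-fold and 1.57-fold higher and Ddit4, an inhibitor of mTOR signalling, 1.57-fold and 1.75-fold. Cyb5a, Ypel3, Kank1, Car2 and Cdh15 completed the 8 highest, and these 5 were under 2-fold in both libraries. Members were lower in Panx3, a channel protein of osteoblasts and hypertrophic cartilage, at 0.547 and 0.509 times the Gal-set level, and in Hoxb2, at 0.540 and 0.537 times. Timp1, an inhibitor of matrix metalloproteinases, stood at 0.620 and 0.598 times, and the antioxidant enzyme gene Gpx3 at 0.637 and 0.591 times. Fabp3, Gtf2e2 and Mpv17l were between 0.617 and 0.719 times. Cthrc1, which encodes a secreted protein that limits collagen deposition, had 403 CPM in Control members and 683 in Gal-set cells, and 704 and 975 CPM in Dach1OE. Gal-set cells also had more UMIs per cell (medians 8912 and 9090.5), and the part of depth in these ratios was not tested.

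Against Dmp1-set cells the genes lowest in members differed by far more than those against Gal-set cells. Fbln7, a matrix protein, was at 1.36 CPM in Control members and 71.3 CPM in Dmp1-set cells, and at 1.18 and 60.0 CPM in Dach1OE. Plpp1, a lipid phosphatase, was at 17.8 and 404 CPM in Control and at 11.9 and 432 CPM in Dach1OE. The BMP ligand genes were likewise low in members, with Bmp4 at 10.6 against 161 CPM in Control and 9.27 against 116 CPM in Dach1OE. Bmp2 was at 16.1 against 170.4 CPM in Control and at 18.3 against 193 CPM in Dach1OE. Gchfr, Fam198b, Adamts14 and Car12 completed the 8 lowest, at 0.0552 to 0.0921 times the Dmp1-set level. In the other direction, Omd (osteomodulin, a small proteoglycan of mineralized tissue) stood at 102 CPM in Control members and 34.5 CPM in Dmp1-set cells, and at 115 and 28.4 CPM in Dach1OE. Smoc2, a matrix protein, was 2.31-fold and 2.86-fold higher, S1pr3, a receptor for sphingosine 1-phosphate, 2.53-fold and 2.54-fold, and Tmem119, a membrane protein of differentiating osteoblasts, 2.002-fold and 2.001-fold. Scarf2, Fam167a, Chn1 and Ptprd were between 1.89-fold and 2.65-fold higher.

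Some genes outside the rule were ordered among members along the same axis and others were not. Members were divided by how many of the 7 Dmp1-set genes they showed, from 0 to 3, and genes outside the rule were read in each step. Ibsp stood at 1356, 1847, 2164 and 2530.2 CPM in Control and at 1438, 1732, 2235 and 2283 CPM in Dach1OE. The 95% Poisson intervals of neighbouring steps did not overlap, except for the last 2 steps in Dach1OE, and cover counting error only. Irx5, a homeobox gene of the osteocyte markers, went from 38.4 to 92.3 CPM in Control and from 35.2 to 97.7 CPM in Dach1OE. Lox, which cross-links collagen, was at 927 and 1321 CPM at the ends in Control and at 1064 and 1383 CPM in Dach1OE. Omd took the opposite course, from 192 to 47.3 CPM in Control and from 163 to 73.0 CPM in Dach1OE. Cd44 and Fbln7, both higher in Dmp1-set cells, followed no such order. Cd44 was at 35.1, 44.4, 27.8 and 45.8 CPM in Control and at 39.7, 31.7, 35.2 and 35.9 CPM in Dach1OE, and Fbln7 lay between 0.409 and 2.25 CPM at every step of both libraries, with at most 5 UMIs at a step in Control. Median UMIs per cell were 5456 at the lowest step and 7877.5 at the highest in Control, and 5963 and 7731 in Dach1OE. A deeper cell shows more of any 7 genes, and the part of depth in these courses was not tested.

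**Figure D2:**
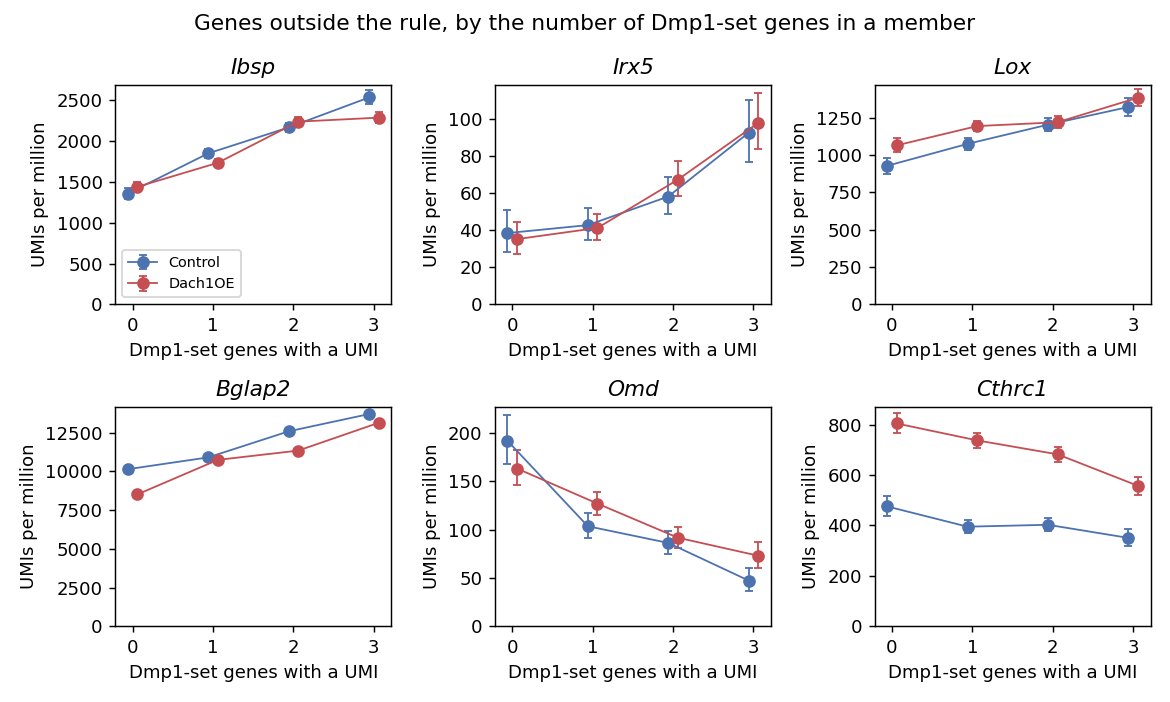
CPM with 95% Poisson intervals (vertical axes) of 6 genes outside the rule in members with 0 to 3 detected Dmp1-set genes (horizontal axes), for Control (blue) and Dach1OE (red). Ibsp, Irx5 and Lox are higher with more Dmp1-set genes and Omd is lower, and the Dach1OE line of Cthrc1 lies above the Control line at every step.

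The number of late genes gave another axis. From 2 to 5 late genes, Spp1 (osteopontin) stood at 1817, 979.7, 692 and 264 CPM in Control and at 1671, 909, 620.1 and 411 CPM in Dach1OE. Tnc (tenascin C) went from 548 to 79.9 CPM and from 424 to 53.1 CPM, and Mmp13 (collagenase 3) from 549.8 to 78.3 CPM and from 287 to 44.0 CPM. Sparc (osteonectin), by contrast, was at 50958 CPM with 2 late genes and 71179 with 5 in Control, and at 51966 and 73105 in Dach1OE. Smpd3, a sphingomyelinase required for mineralization, was at 316 and 509 CPM in Control and at 373 and 556 CPM in Dach1OE. Members with few late genes thus carried more Spp1, Tnc and Mmp13 and less of the bone matrix product Sparc. Median UMIs per cell were 4265 with 2 late genes and 8373 with 5 in Control, and Cxcl12, a marrow stromal marker, was at 1641 and 253 CPM in the same cells, so that marrow transcripts were highest where late genes were fewest. The part of either in these courses was not tested. Along the Gal-set genes Cthrc1 was ordered too, with 260, 351 and 536 CPM at 0, 1 and 2 genes in Control and 549, 643 and 829.8 CPM in Dach1OE.

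The 1st comparison of the libraries concerns how many such cells there were. Members made up 3.99% of kept cells in Control (exact binomial 95% interval 3.75 to 4.23) and 4.86% in Dach1OE (4.61 to 5.11), a difference of 0.871 percentage points (Newcombe interval 0.530 to 1.21). With 1 library per group there is no replicate of a library and no test, and all intervals cover counting error only. All kept cells with at least 5 Bglap UMIs, fewer than 5 Acan UMIs and no Cdh5 or Ptprc are here called Bglap cells. The share of members among Bglap cells was 65.6% of 1609 in Control and 66.1% of 2153 in Dach1OE. This difference of 0.572 points had an interval of -2.48 to 3.64, which holds 0. After thinning cells to 4000 UMIs it was 2.91 points (0.0682 to 5.79), and with at least 10 Bglap UMIs it was -0.211 points. Thinning also changed which cells were members. Members were 65.7% and 66.8% of Bglap cells with at least 4000 UMIs, but 77.4% and 80.3% after thinning. Gal-set cells made up 12.5% and 14.96% of Bglap cells (difference 2.46 points, 0.229 to 4.65). Dmp1-set cells made up 13.6% and 12.7% (difference -0.931 points, -3.14 to 1.24). Cells with fewer than 2 late genes that belonged to neither set made up 8.33% and 6.22% (difference -2.10 points, -3.84 to -0.437). Within each sex the intervals of both the Gal-set difference (2.17 points, -1.60 to 5.95, in female and 0.378, -5.24 to 5.58, in male cells) and that of few late genes (-1.90, -4.45 to 0.608, and -2.16, -5.88 to 0.941) held 0.

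Sex allows a view of single mice. A cell with Xist and no UMI of 4 Y-linked genes was called female, the reverse male, and if each pair held 1 female and 1 male, either sex sets 1 mouse against 1 mouse. No call was possible for 404 of 1055 Control and 622 of 1424 Dach1OE members, and 37 and 49 showed both kinds of UMI. Ratios within a sex thus rest on fewer cells and leave these members out. For some genes both sexes lay on the same side of the ratio over all members, as given below. Female cells gave 441 members of 9993 kept cells in Control (4.41%) and 441 of 9388 in Dach1OE (4.70%), a difference of 0.284 points with an interval of -0.303 to 0.875. Male cells gave 173 of 5887 (2.94%) and 312 of 7402 (4.22%), a difference of 1.28 points with an interval of 0.641 to 1.90. The difference between these differences was not tested. Of cells with Cdh5, 3.24% in Control and 3.69% in Dach1OE reached 5 Bglap UMIs, and the part of free RNA or mixed cells in this was not tested. Among cells with at least 5 Acan UMIs these shares were 6.91% and 3.92%.

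**Figure D3:**
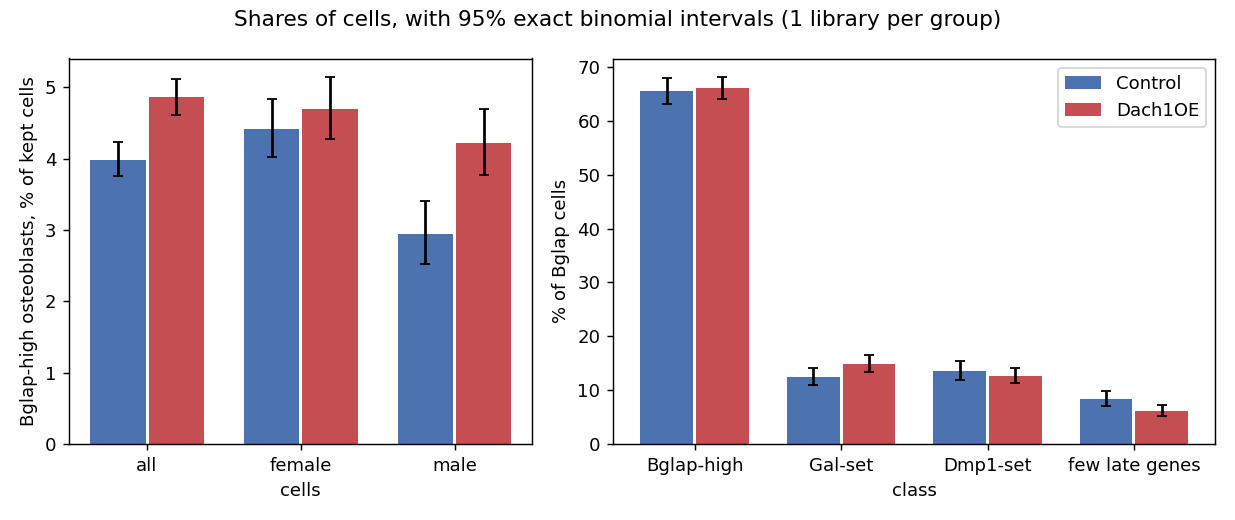
Share of members among kept cells, all and by sex (left, %), and make-up of Bglap cells (right, %), in Control (blue) and Dach1OE (red), with exact binomial 95% intervals and 1 library per group. The Dach1OE bar is above the Control bar for all cells (4.86% against 3.99%) and for male cells, the female intervals overlap, and the share of members among Bglap cells is nearly level at 65.6% and 66.1%.

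The 2nd comparison concerns transcript levels, from 7368947 UMIs summed over Control members and 10142823 over Dach1OE members. Few genes passed 2-fold. Of 8600 genes with at least 100 UMIs over both libraries, 4 were over 2-fold higher in Dach1OE (0.0465%) and 53 over 2-fold lower (0.616%), and the median log2 ratio of Dach1OE over Control was -0.003. For scale, male and female members of the same library differed by over 2-fold in 0.678% of 3984 genes in Control and in 0.276% of 4718 in Dach1OE. Between the libraries the corresponding shares were 1.10% within female and 0.986% within male cells. The same direction past 2-fold in both sexes was found for 2 higher and 35 lower genes.

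**Figure D4:**
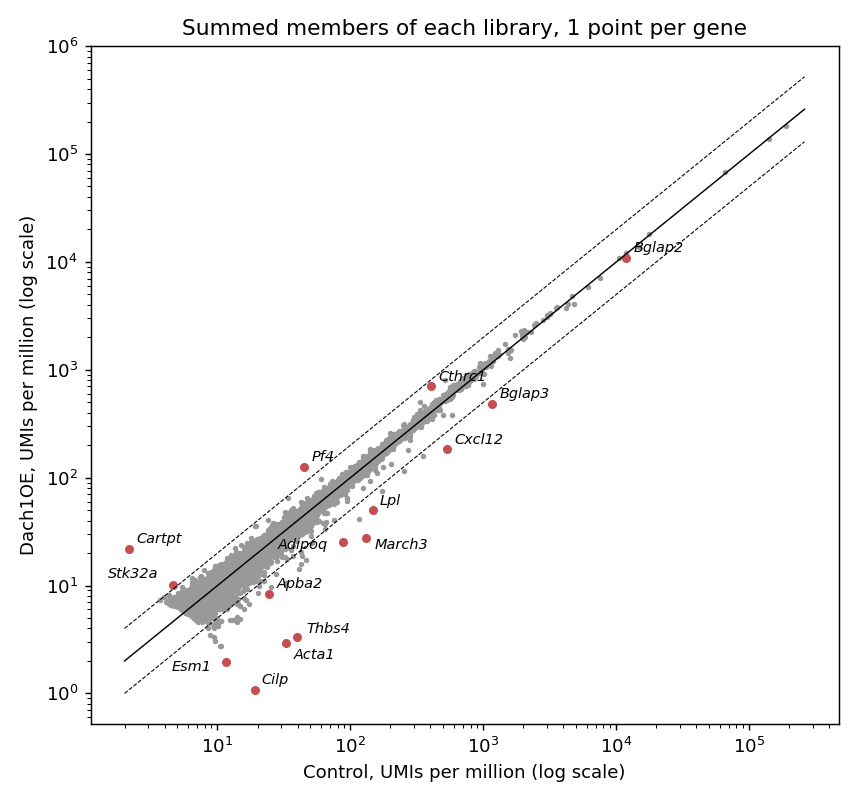
CPM of 8600 genes summed over members of Control (horizontal axis, log scale) and Dach1OE (vertical axis, log scale), 1 point per gene, with the line of equality and dashed lines at 2-fold. Most genes lie between the dashed lines, and March3, Bglap3, Cxcl12, Lpl and Adipoq lie below them.

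Dach1 was looked at as the targeted gene. It had 24 UMIs in Control members (3.26 CPM) and 50 in Dach1OE members (4.93 CPM), with a log2 ratio of 0.60 and an interval of -0.13 to 1.36 that holds 0. In female cells it had 7 UMIs in Control and 21 in Dach1OE (2.30 and 6.36 CPM), and in male cells 4 and 7 (2.88 and 2.96 CPM). Over all other kept cells it stood at 6.65 and 52.3 CPM. Aplnr, whose promoter drives the Cre, had 48 and 32 UMIs in members, whereas other cells were at 150.1 and 133 CPM.

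The osteocalcin genes differed in their ratios. Bglap, a gene of the rule, was at 18305 CPM in Control and 16305 CPM in Dach1OE (log2 ratio -0.17). Bglap2 was at 11847 and 10889 CPM, with a log2 ratio of -0.12 (interval -0.13 to -0.11), and was -0.12 in female and -0.15 in male cells. Bglap3 was at 1169 CPM in Control members and 485 CPM in Dach1OE members. Its log2 ratio was -1.27 (interval -1.32 to -1.22), with -1.30 in female and -1.25 in male cells, and 93.0% and 81.3% of members had a UMI. The lower level held in neighbouring cells too, with 829 and 325 CPM in Gal-set cells, 849 and 341 CPM in Dmp1-set cells, and 48.4 and 23.8 CPM in all other kept cells. The 10 members with the most Bglap3 held 3.77% and 3.07% of its UMIs, so the difference was spread over many cells. Of the windows of Bglap3, 12% occurred in Bglap and 24% in Bglap2, and both of these genes had higher levels than Bglap3. The part of the split of reads in the Bglap3 ratio was not tested.

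March3, a membrane-bound ubiquitin ligase gene on chromosome 18 (chr18:56761716-56925548, minus strand), had the lowest ratio among the lower genes that were spread over many cells, as defined below. It had 963 UMIs in Control members (131 CPM) and 279 in Dach1OE members (27.5 CPM), a log2 ratio of -2.25 (interval -2.45 to -2.05), with -2.56 in female and -1.91 in male cells. The share of members with a UMI was 55.2% and 16.6%. In Gal-set cells it was at 131 and 26.5 CPM and in Dmp1-set cells at 121 and 31.1 CPM, and in all other kept cells at 23.9 and 15.3 CPM. Stk32a, a kinase gene on the same chromosome (chr18:43207583-43318682), was one of the 2 higher genes, with 34 and 103 UMIs in 34 and 94 members and a log2 ratio of 1.14 (interval 0.57 to 1.74). Cartpt, a neuropeptide gene, was the other, with 16 and 222 UMIs, but these came from 5 and 14 cells, and the 10 cells with the most held 100% and 97.7% of them.

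The lower genes were of 2 kinds by how they were spread over cells. For 7 of the 35 (March3, Bglap3, Angptl4, Apba2, Hrh2, Vmn1r4 and Spata5), the 10 Control members with the most UMIs held under 25% of them. Apba2, an adaptor protein of the Mint family, was at 24.6 CPM in Control and 8.38 CPM in Dach1OE (log2 ratio -1.55), and Hrh2, a histamine receptor, at 25.4 and 9.66 CPM (-1.39). Angptl4, a secreted inhibitor of lipoprotein lipase, was at 9.499 and 3.06 CPM (-1.64). It had a UMI in only 66 Control and 30 Dach1OE members, and it was higher in all other kept cells, at 49.2 and 20.5 CPM. The part of free RNA in its ratio was not tested. Of the 7 genes, those other than March3, Bglap3 and Angptl4 are named after their values were seen. For the other 28, 10 cells held at least 25% of the Control UMIs. Cilp (log2 ratio -4.13), Thbs4 (-3.57) and Acta1 (-3.48) were the extremes, and the 10 leading Control members held 98.6%, 95.6% and 99.6% of their UMIs. With at least 10 Bglap UMIs per cell, Acta1 had a ratio of 1.21, the opposite direction. It had 243 UMIs in Control and 30 in Dach1OE, of which 6 and 2 lay in female and 2 and 0 in male cells. Cilp and Thbs4 are matrix genes of cartilage and tendon and Acta1 encodes skeletal muscle actin. Esm1 (-2.55), Wisp2 (-1.96), Il1rn (-1.92), Adipoq (-1.79) and Vcam1 (-1.63) completed the lowest 10 with March3 and Angptl4. Without cells marked by Scrublet, Adipoq was at -0.95 and no longer past 2-fold. Wisp2 had 31 UMIs in Control and 1 in Dach1OE in female cells and 27 and 2 in male cells of 79 and 28 in all members, so that the ratio over all members was nearer 0 than that within either sex.

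Adipoq, Esm1, Cxcl12, Lpl and Ebf3 of these genes are markers of marrow stromal cells, the reticular cells that produce the chemokine CXCL12. Adipoq was at 87.8 CPM in Control members and 25.3 in Dach1OE, Lpl (lipoprotein lipase) at 147 and 50.1 CPM, and Cxcl12 at 532 and 183 CPM (log2 ratio -1.54, interval -1.62 to -1.46). Within female and male cells Cxcl12 was at -2.54 and -2.33. Lpl was at -2.53 and -2.65 (-1.56 over all members) and Adipoq at -2.58 and -3.34 (-1.79). Both sexes thus lay below the ratio over all members, so members without a single call of sex differed less for these genes. Agreement of the sexes does not cover those members. In all other kept cells Cxcl12 was at 2972 and 1168 CPM and Adipoq at 477 and 158 CPM, so the same direction was seen there. Of the 35 lower genes, 32 were also lower in all other kept cells of Dach1OE, the exceptions being Acta1, Aspn and Spata5. Any lower level counted here, without the 2-fold limit, as for Spsb1 at 46.8 and 45.3 CPM. The share of all genes that were lower in these cells was not counted. Members with at least 10 UMIs of the marrow stromal markers numbered 52 in Control (4.93%) and 39 in Dach1OE (2.74%), and they held 85.9% and 71.9% of these UMIs and 91.6% and 85.4% of those of Cxcl12. Scrublet marked 61.5% and 43.6% of them. In the remaining members Cxcl12 was at 47.7 and 27.6 CPM. In members with no UMI of Adipoq, Lepr or Lpl (860 in Control and 1235 in Dach1OE), a setting chosen after seeing the data, 20 of the 35 genes had a ratio over 2-fold lower, whether or not they still had 100 UMIs there, among them March3 (-2.31) and Bglap3 (-1.29). Of all 53 lower genes, 16 still had 100 UMIs and were past 2-fold lower in these members. The part of stromal RNA or mixed cells in the lower genes was not tested.

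Cthrc1 (chr15:39076932-39087121, plus strand) was higher in Dach1OE members without passing 2-fold, and it was chosen after its values were seen. It had 403 CPM in Control members and 704 CPM in Dach1OE members, with a log2 ratio of 0.81 (interval 0.74 to 0.87), 0.97 in female and 0.67 in male cells. A UMI was found in 69.8% and 85.5% of members. Gal-set cells had 683 and 975 CPM, Dmp1-set cells 262 and 515 CPM and all other kept cells 62.6 and 111 CPM. Pf4, a platelet chemokine, was 1.49 higher on the log2 scale over all members but -0.66 in female and 0.83 in male cells, and the 10 leading cells held 66.7% and 86.7% of its UMIs. Slc1a3, a glutamate transporter gene, was the fourth gene past 2-fold higher, with 29 and 80 UMIs and a log2 ratio of 1.003, but 0.47 in female and 0.39 in male cells. Pf4 and Slc1a3 are likewise named after their values were seen.

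Of 16 collagen genes with enough UMIs none passed 2-fold, and their median log2 ratio was -0.02, beside -0.003 over all genes, with 3 of 16 above 0 in female and 10 in male cells. Col1a1 was at 188446 CPM in Control and 183268 CPM in Dach1OE, Col11a1 at 4601 and 4826 CPM and Col5a2 at 3528 and 3753 CPM. Col6a1 and Col3a1 were lowest by ratio, at -0.61 and -0.47, with -1.46 and -1.59 in female cells. Of 20 genes of the non-collagen matrix, Bglap3 and Postn (periostin) were past 2-fold lower and none higher, beside 0.616% of all genes lower, with a median of -0.04, which was -0.22 in female cells (6 of 20 above 0) and -0.02 in male cells. Postn was found in 7.11% of Control members, and 10 of them held 64.5% of its UMIs. Sparc stood at 65712 and 68732 CPM, Spp1 at 656 and 649 CPM, Bgn (biglycan) at 2298 and 2236 CPM and Dcn (decorin) at 2983 and 3203 CPM. Enzymes and chaperones of collagen had a median of 0.08 over 27 genes with none past 2-fold. Serpinh1, the collagen chaperone HSP47, was at 3146 and 3394 CPM, and Fkbp10, a collagen-folding isomerase, at 257 and 288 CPM.

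Mineralization genes, 9 of 15 with enough UMIs, had a median of 0.01. Alpl, the alkaline phosphatase of mineralizing bone, was at 324 and 383 CPM, with 0.24 over all members, 0.02 in female and 0.51 in male cells. Smpd3 was at 446 and 511 CPM, with 0.20 over all members, 0.20 in female and 0.22 in male cells. Slc20a2 was lowest by ratio (-0.51). Among 16 osteoblast transcription factors the median was -0.02, and Mef2c (360.2 and 388 CPM), Dlx3 (164 and 163 CPM) and Atf4 (225 and 216 CPM) lay within 0.11 of 0. Of the 16, 10 were below 0, and the range was from -0.48 (Zfp521) to 0.33 (Tcf7). Wnt pathway genes had a median of -0.06 over 17, with Sfrp4, a Wnt antagonist, lowest at -0.83 (8.96 and 5.03 CPM) and Lrp5, a Wnt co-receptor with a known role in bone mass, at 112 and 98.0 CPM (-0.20).

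Signals to other cells were mostly low in level. Of 11 genes for signals to osteoclasts and vessels, Cxcl12 and Cxcl14 were past 2-fold lower, with a median of -0.22, beside 0.616% of all genes past 2-fold lower. The median was -0.07 with under 10% mitochondrial UMIs, -0.08 without cells marked by Scrublet and -0.09 in members with no UMI of Adipoq, Lepr or Lpl, where Cxcl12 was at -0.98, under 2-fold. The 10 leading Control members held 38.6% of the UMIs of Cxcl12 and 40.2% of those of Cxcl14. Tnfsf11 (RANKL), the signal that drives osteoclast formation, had only 22 UMIs in Control and 6 in Dach1OE, too few to enter, and its decoy receptor gene Tnfrsf11b was at 11.4 and 12.2 CPM. Vegfa was at 39.4 and 39.5 CPM (0.01) and Pdgfa at 108 and 105 CPM (-0.04). Among 12 growth factor genes Chrdl1 (-1.45), Igf1 (-1.09) and Bmp6 (-1.06) were past 2-fold lower, against the same 0.616% of all genes, at 14.0 and 5.13, 27.4 and 12.9, and 8.41 and 4.04 CPM, and all 3 were also lower in all other kept cells. Their UMIs lay in 48, 72 and 38 of 1055 Control members, and the 10 leading cells held 45.6%, 38.1% and 46.8% of them. The median of the list was -0.10, and -0.01 in members with no UMI of Adipoq, Lepr or Lpl. Receptors had a median of -0.11 over 20 with none past 2-fold, with Pth1r, the parathyroid hormone receptor, at 223 and 247 CPM (0.15) and Vdr, the vitamin D receptor, at 195 and 194 CPM (-0.01). Of 17 proteases and inhibitors Mmp9 and Mmp13 were past 2-fold lower. Mmp13 was at 171 and 75.1 CPM with -0.97 in female and -1.38 in male cells. Mmp9, an osteoclast marker too, was at 116 and 41.7 CPM with 1.23 in female and -6.96 in male cells, which are opposite in sign.

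The remaining lists describe the state of the cells. Secretory pathway genes had a median of 0.02 over 33, none past 2-fold. Xbp1, a driver of secretory capacity, was at 215 and 235 CPM, Hspa5 (BiP) at 361 and 364 CPM and Creb3l1, an endoplasmic reticulum sensor of osteoblasts, at 669 and 689 CPM. Sec61b had the highest ratio, at 333 and 420 CPM (0.33), and Ssr4 was at 254 and 314 CPM (0.31). Respiratory chain and ATP synthase genes lay above 0 in 40 of 43, beside 4253 of all 8600 genes, with a median of 0.11, 0.18 in female and 0.06 in male cells. Cox6c was highest at 355 and 459 CPM (0.37) and Sdhb lowest at 41.0 and 37.8 CPM (-0.12). Glycolysis and hypoxia genes had a median of 0.04 over 21, with Gapdh at 99.3 and 124 CPM and Epas1 at 25.1 and 16.6 CPM. Genes of dissociation and stress were below 0 in 16 of 20, beside 4347 of all 8600 genes, with a median of -0.22, -0.63 in female and -0.33 in male cells. Zfp36 was at 93.8 and 60.8 CPM (-0.62), Jun at 94.5 and 65.3 CPM (-0.53) and Egr1 at 58.2 and 39.6 CPM (-0.55), and Socs3 alone passed 2-fold lower (10.7 and 4.73 CPM), beside 0.616% of all genes. Socs3 had 42 UMIs in Control and 2 in Dach1OE in female cells and 16 and 13 in male cells (-1.06), and 10 members held 44.3% of its Control UMIs. In the interferon list 7 of 20 genes entered, with a median of -0.10 and Ifitm3 at 107 and 104 CPM.

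Genes of the S and G2/M phases were low and split by sex. Over 17 genes the median was -0.20, none passed 2-fold, and Mki67 had a UMI in 4.17% and 5.34% of members and Top2a in 5.88% and 5.97%. Within female cells 15 of 17 were higher in Dach1OE (median 0.50), and within male cells none was (median -0.97). The share of all genes above 0 within a sex was not counted for this or any other list. Whether a few cells held the UMIs of these genes was not examined. Rrm2, a subunit of ribonucleotide reductase, had 51 and 90 UMIs in female cells and 80 and 38 in male cells. Hba-a1, from the 8 red cell markers, went the same way, with a log2 ratio of 1.01 in female and -1.61 in male cells. The other red cell markers are not given by sex, and the part of red cell transcripts in the split was not tested.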

How the data were processed

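The data are scRNA-seq counts of 2 BD Rhapsody libraries, 1 per group. The deposited tables hold counts, made by the authors per the file headers with the BD Rhapsody WTA Analysis Pipeline 1.11 (the methods name another version), on GRCm38 with GENCODE vM19, intronic reads included. The unit used was the UMI count after the pipeline's error correction, unnormalized. Intronic counting lets overlapping transcripts add to a gene, and use of strand is not given in the sources used here. Depth was 143986818 UMIs in Control and 166999989 in Dach1OE.

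Cells were chosen by the rule given above in Python 3.11.15 (NumPy 2.4.6, pandas 2.3.3). UMIs were summed over members per library and divided by their total (CPM). Intervals at 95% are exact Poisson (CPM), exact binomial (shares and log2 ratios) and Newcombe (differences), from SciPy 1.17.1, and cover counting error only. With 1 library per group no p-value was computed, and past 2-fold stands in for a call. Genes with at least 100 UMIs over both libraries entered. The approach was tested on simulated data. The simulated counts were drawn independently for each gene, so they cover the ratios only. They test neither the choice of members nor genes whose UMIs a few cells hold. TMM (edgeR 4.0.16) and DESeq2 1.42.0 size factors served as scaling alternatives, and Scrublet (scanpy 1.11.5) marked doublets, which stayed in.

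Genes were named by these rules. Between libraries, up to 10 highest and 10 lowest log2 ratios past 2-fold in all members and in both sexes, without genes of the rule, Xist and Y-linked genes. As levels, the 15 with the highest ratio over all other kept cells and the 8 highest and 8 lowest against Gal-set and Dmp1-set cells, in the library where the ratio was weaker, among genes found in at least 25% of members of both libraries or, against Gal-set and Dmp1-set cells, in at least 25% of the cells compared with, an extension made after the data were seen. Genes of the rule were left out of these rankings of levels too. Genes of the 16 lists and 10 marker lists could also be named. The members and lists were chosen with earlier results of these data known. Coordinates are from GENCODE vM21 on GRCm38, 1-based. Other cell classes were not analysed here for their own sake.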

Additional observations from a re-analysis of the deposited data

Results flagged for a closer look

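In 4 lists the median log2 ratio of Dach1OE over Control in members had opposite signs in female and male cells, that is, in 1 mouse against 1 mouse if each pair held both sexes. The difference between the sexes was not tested in any of them. Collagens had a median of -0.0818 in female and 0.0369 in male cells, and osteoblast transcription factors -0.0716 and 0.0445. The interferon response genes had -0.34 and 0.00696, with 0 of 7 genes above 0 in female and 4 in male cells. Genes of the S and G2/M phases had 0.50 and -0.97, with 15 of 17 above 0 in female and 0 in male cells, which was the widest of these gaps. The share of all genes above 0 within a sex was not counted.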

How the results depend on the processing

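No paired analysis was possible because each group has 1 library, so the groups share fewer than 2 replicate numbers. The difference in the share of members among kept cells, 0.871 points, was 1.28 with under 10% mitochondrial UMIs, 1.496 with at least 4000 UMIs per cell, 1.94 after thinning to 4000 UMIs (leaving out 193 Control and 188 Dach1OE members), 0.284 in female and 1.28 in male cells. Among Bglap cells, 0.572 points, it was -0.211 with at least 10 Bglap UMIs, 2.91 (0.0682 to 5.79) after thinning, 2.59 in male cells, 2.09 with at least 3 late genes, 1.74 with under 10% mitochondrial UMIs, 1.49 with 1000 to 6000 genes and 1.16 with at least 4000 UMIs. Of these intervals, that after thinning alone left out 0, and thinning raised the share of members among Bglap cells in both libraries. The count of higher genes, 4, was 8 with cells weighted equally, 8 in female cells, 9 in male cells, 1 with at least 400 UMIs per gene and 2765 with no minimum. That of lower genes, 53, was 29 with under 10% mitochondrial UMIs, 34 without cells marked by Scrublet, 25 in male cells, 15 with at least 400 UMIs, 3617 with no minimum, and 20 in members without Adipoq, Lepr or Lpl, which was added after seeing the data. Of that 20, 16 were among the 53. Adipoq was at -0.95 without cells marked by Scrublet. Fewer UMIs per gene or fewer cells make ratios less precise at low counts. Acta1 had a ratio of 1.21 instead of -3.48 with at least 10 Bglap UMIs. Bglap3 ranged from -1.33 to -1.23, March3 from -2.56 to -1.91, Cthrc1 from 0.67 to 0.97 and Cxcl12 from -2.54 to -0.98 over 11 alternatives each. TMM and DESeq2 size factors shifted all log2 ratios by 0.003. Causes of these moves were not tested.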

Other observations

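Col10a1, the collagen of hypertrophic cartilage and a chondrocyte marker here, was at 33.7 CPM in Control members and 65.5 CPM in Dach1OE members, a log2 ratio of 0.96 (interval 0.75 to 1.18), with 0.88 in female and 1.40 in male cells. The other chondrocyte markers that entered lay between -0.14 and 0.21. Col2a1 was at 1530.2 and 1554 CPM (0.02), with -0.32 in female and 0.55 in male cells, and Sox9 at 14.7 and 13.6 CPM (-0.11). Rgs5, a pericyte marker, was at 60.3 and 97.6 CPM (0.70), but at -0.23 in female and 4.01 in male cells. The 8 markers of smooth muscle cells and pericytes, Rgs5 among them, summed to 214.0 and 249.7 CPM, so the others together were not higher in Dach1OE.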
